A study of Homo sapiens with 4 samples.

Results

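Chorionic gonadotropin is a hormone made of 2 chains, and the genes for both chains were followed here in A549 lung cancer cells before and during long exposure to TGF-β. The 8 genes are CGA, CGB1, CGB2, CGB3, CGB5, CGB7, CGB8 and LHB. They were chosen by symbol out of 57820 gene rows in the files, and all 8 had a row. They were proposed with the rise of CGB8 in TD cells known, so their own differences between the groups are given as values, with no test.

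CGA encodes the alpha chain that chorionic gonadotropin shares with the luteinizing, follicle-stimulating and thyroid-stimulating hormones. The beta chain gives each hormone its identity. The CGB genes encode the beta chain of chorionic gonadotropin, and LHB encodes that of luteinizing hormone. The intact hormone is secreted by the placenta and acts on the receptor LHCGR, which signals through cyclic AMP. Many carcinomas are known to release free beta chain without the alpha chain.

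Messenger RNA was counted in 4 libraries. The parental group is A549, an established human lung adenocarcinoma line of epithelial morphology, with 2 libraries. The other group, TD, also with 2 libraries, is A549 cells of mesenchymal-like morphology maintained with TGF-β at 2 ng/ml given every 3 days. Both grew in DMEM with 10% serum and gentamycin, and the labels do not name a vehicle for A549, a clone for TD or separate cultures for the libraries. Each p-value is thus set against differences among libraries that could be technical alone.

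Libraries held 26729278 to 44133836 gene counts, the largest being TD replicate 2. The defining epithelial gene CDH1 fell and the mesenchymal gene CDH2 rose in TD (log2 changes -6.00 and 8.58, adjusted p = 3.08e-05 for each by edgeR's quasi-likelihood test). The alveolar markers were near 0 in both groups, with 5 of 6 at no more than 6 counts in any library. The same test called 7642 of 17785 tested genes, 43.0%, with 21.6% called higher in TD and 21.4% called lower. These shares are the background for every count of calls in a gene list below. Levels are in CPM, counts scaled to library size with the TMM method, which balances most genes between libraries. Changes are on the log2 scale, positive where TD was higher, and SE is the standard error of the fit.

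The coding sequences show why single genes of this family are hard to tell apart by reads of 75 bases. In the GENCODE 29 transcripts, the 495 coding bases of CGB5 and CGB8 were identical, and CGB3 differed from either by 1 substitution. CGB7 differed from CGB8 by 5 substitutions in 495 bases. CGB1 and CGB2, whose coding parts are shorter, matched CGB8 at 98.9% and 98.8% of aligned bases, and LHB matched it at 92.0%. The stretch below, coding bases 12 to 71, holds most of the secretion signal and the start of the mature chain. It reads the same in CGB3, CGB5 and CGB8, and capitals mark the 3 bases at which CGB7 differs from CGB8.
CGB8: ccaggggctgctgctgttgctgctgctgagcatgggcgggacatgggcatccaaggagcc
CGB7: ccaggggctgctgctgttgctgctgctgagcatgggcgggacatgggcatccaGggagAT

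The files list reads with more than 1 alignment apart from the genes, so the counts rest on the parts of each transcript that differ. Reads came in pairs, and a pair can be placed by either of its reads. Windows of 75 bases leave this out and to that extent understate the part of a transcript that can be counted. Only transcripts were searched, not introns or DNA outside gene models, which could overstate that part. Of the 75-base windows of the CGB8 transcript, 211 of 808 (26.1%) occurred in no transcript of another GENCODE 29 gene. The share was 21.3% for CGB5, 31.0% for CGB3, 33.6% for CGB2, 26.3% for CGB1 and 62.8% for CGB7. CGA and LHB were unique in every window. Matches to AC008687.1, AC008687.4, AC008687.7 and AC008687.8, gene models inside the cluster, were taken as the same locus and set aside. CGB8 shared 537 windows with CGB5 and 487 with CGB3, so counts of single CGB genes are uncertain and a sum over the 6 is given beside them. That sum also lacks the reads that fit 2 or more copies. In addition, 47.4% of the exon bases of CGB3 and 44.6% of those of CGB1 lie in exons of AC008687.1, a longer gene model on the same strand that had 0 counts in every library. As the files hold a row for it, their annotation included this gene, though its exons there may differ from GENCODE 29. Reads in shared exons could then count as ambiguous and lower the counts of CGB3 and CGB1, and this was not tested.

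The DNA just before the start sites separates the family into groups and is shown because members with near-identical promoters differed in level. The 250 bases before each RefSeq start site (build GRCh38.p14) were read for all 8 genes. The windows of CGB8 (chr19:49049112-49049361, minus strand) and CGB5 (chr19:49043598-49043847, plus strand) were identical in 97.1% of 240 aligned columns. Capitals mark where these 2 differ.
CGB8: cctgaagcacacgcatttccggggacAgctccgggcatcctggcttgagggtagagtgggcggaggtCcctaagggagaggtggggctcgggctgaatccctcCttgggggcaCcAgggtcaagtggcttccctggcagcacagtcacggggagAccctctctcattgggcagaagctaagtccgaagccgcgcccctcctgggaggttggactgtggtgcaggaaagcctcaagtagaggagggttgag
CGB5: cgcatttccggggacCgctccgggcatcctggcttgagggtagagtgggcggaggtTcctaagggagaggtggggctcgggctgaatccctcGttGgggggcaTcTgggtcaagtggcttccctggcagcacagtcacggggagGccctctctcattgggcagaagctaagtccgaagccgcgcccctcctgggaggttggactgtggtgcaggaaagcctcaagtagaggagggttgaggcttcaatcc

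CGB3 matched CGB8 in 97.9% and CGB5 in 96.4% of aligned columns. CGB1 and CGB2 start from another sequence and matched each other in 76.0%. Below are CGB2 (chr19:49031640-49031889, plus strand) and CGA (chr6:87095107-87095356, minus strand), with the cyclic AMP response element TGACGTCA in capitals, and CGB7 (chr19:49057750-49057999, minus strand), with its match to the AP-2 motif GCCNNNGGC in capitals.
CGB2: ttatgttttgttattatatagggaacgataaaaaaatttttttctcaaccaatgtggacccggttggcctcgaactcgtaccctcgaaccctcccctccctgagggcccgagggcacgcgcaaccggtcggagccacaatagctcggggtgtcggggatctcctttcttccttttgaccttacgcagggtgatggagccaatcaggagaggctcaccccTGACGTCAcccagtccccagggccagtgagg
CGA: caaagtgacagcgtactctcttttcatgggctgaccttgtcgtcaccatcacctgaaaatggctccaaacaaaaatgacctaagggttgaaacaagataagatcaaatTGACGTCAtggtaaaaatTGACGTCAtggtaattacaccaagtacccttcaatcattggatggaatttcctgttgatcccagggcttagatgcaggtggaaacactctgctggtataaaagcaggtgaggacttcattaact
CGB7: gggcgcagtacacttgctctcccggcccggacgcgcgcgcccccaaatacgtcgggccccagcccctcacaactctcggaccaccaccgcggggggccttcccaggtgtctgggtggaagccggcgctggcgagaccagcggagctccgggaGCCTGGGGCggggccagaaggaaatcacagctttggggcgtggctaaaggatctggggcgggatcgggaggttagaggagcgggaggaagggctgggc

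TGACGTCA, which reads the same on both strands, occurred once in CGB2 and once in CGB1 and as 2 copies in CGA. It was found in 1.65% of all 35116 promoter windows of this length, and 2 or more copies in 0.0541%. Of 8 motifs searched on both strands, none matched in CGB3, CGB5, CGB8 or LHB. The AP-1 motif TGANTCA was in 6.57% of all windows and in no member. The SMAD palindrome GTCTAGAC was in 0.182% of all windows and in no member. The shorter SMAD site, CAGAC, was in 38.0% of all windows and had 1 match in CGB7. CGB7 also had 1 match to CAGGTG, the E-box that ZEB and SNAI factors bind, found in 17.5% of all windows, and CGA had 3. The AP-2 motif GCCNNNGGC of CGB7 was in 19.8% of all windows. CGA alone among the members held the TATA box letters TATAAA (10.7% of all windows) and the GATA motif AGATAA (9.17%). Matches of different motifs were allowed to overlap, and a match or its absence says nothing about binding.

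The alpha chain gene was not detected in either group, while beta chain genes were present in TD. CGA had 0 counts in each of the 4 libraries. A limit of 3 counts allows up to 0.108 and 0.101 CPM in the A549 libraries and 0.103 and 0.0737 CPM in the TD libraries. These limits, like the intervals given with shares and ratios, reflect counting error alone. The 6 CGB genes together had 2928 counts in TD, at least 976 times the CGA counts if 3 counts over both TD libraries are taken for CGA. Per base of the reference transcripts (882 for CGB8, 615 for CGA), CGB8 alone was at least 491 times as high as CGA in TD. With the union of exons, 2284 bases for CGA, the same ratio came to 1823. RNA for only 1 of the 2 chains was thus detected. The other alpha-type gene, GPHA2, had at most 1 count in a library.

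The summed CGB genes went from nearly nothing to a clear signal. The sum was 11 and 8 counts (0.395 and 0.269 CPM) in the A549 libraries and 1128 and 1800 counts (38.8 and 44.2 CPM) in the TD libraries. The groups lie far apart, and the TD libraries differ from each other by a small part of that gap. By counts the sum was 127-fold higher in TD (95% exact interval 81.3 to 212), and fitted as 1 row its log2 change was 6.96. In bulk RNA, more cells with the transcripts and more RNA per cell cannot be told apart. With LHB included, the sum was 89.0-fold higher (61.5 to 134).

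**Figure D1:**
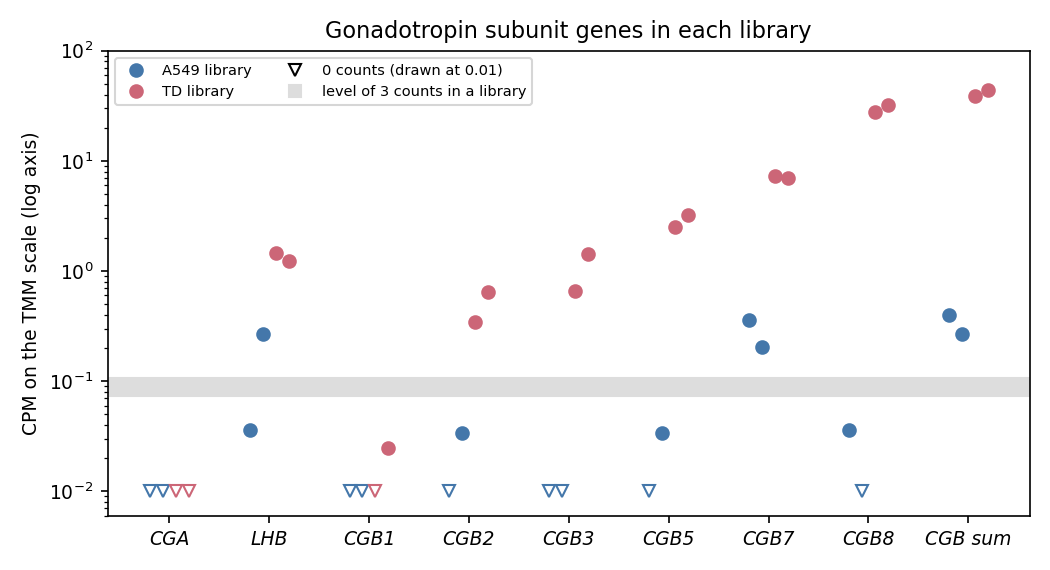
CPM (log axis) of each gene and of the 6 CGB genes summed, with 1 point for each library (A549 blue, TD red). Open triangles are libraries with 0 counts and the grey band is the level of 3 counts in a library; CGA lies at 0 in all 4 libraries, and CGB8 sits at 28.1 and 31.9 CPM in TD.

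CGB8 made up most of this signal. It had 1 and 0 counts in A549 and 815 and 1297 counts in TD, which is 28.1 and 31.9 CPM. Both TD libraries are high and both A549 libraries are at or under the level of 3 counts. By counts the ratio was 1743 (95% exact interval 312 to 68873), and the fitted log2 change was 10.46 (SE 0.36). Because the A549 side is a single read, the fitted change was 12.95 without A549 replicate 1 and 9.54 without A549 replicate 2.

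CGB7, whose beta chain is a close variant of that of CGB8, was the copy with the most reads in parental cells. It had 10 and 6 counts (0.359 and 0.202 CPM) in A549 and 211 and 286 counts (7.26 and 7.03 CPM) in TD. The groups do not overlap, and the 2 TD libraries are nearly level. The ratio by counts was 25.6 (15.6 to 45.2) and the fitted log2 change was 4.66 (SE 0.31).

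CGB5, identical to CGB8 in its coding part, was present at a lower level. It had 0 and 1 counts in A549 and 73 and 132 counts (2.51 and 3.24 CPM) in TD, a ratio of 169 (30.0 to 6714). Here too the A549 side is 1 read and the groups do not overlap. The fitted log2 change was 7.09 (SE 0.66), and it was 6.23 without A549 replicate 1 and 9.55 without A549 replicate 2. CGB3 had no counts in A549 and 19 and 58 counts (0.654 and 1.42 CPM) in TD. Taking 3 counts over the A549 group in place of 0, CGB3 was at least 21.2-fold higher in TD. Its 2 TD libraries had a wider relative gap than those of CGB5, CGB7 and CGB8.

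CGB1 and CGB2 are the copies that start from another promoter, and their protein product is less well established. CGB2 had 0 and 1 counts in A549 and 10 and 26 counts (0.344 and 0.639 CPM) in TD, a ratio of 29.7 (5.00 to 1206). Its fitted log2 change, 4.56 (SE 1.00), was 3.69 without A549 replicate 1 and 7.01 without A549 replicate 2, and the gene was too low to be tested without TD replicate 2. CGB1 had 1 count in all, in TD replicate 2, so no ratio is given. In each TD library these 2 genes, which hold the TGACGTCA element, had the lowest CPM of the CGB copies.

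LHB, the beta chain gene of luteinizing hormone at the edge of the cluster, shared no window with any other member. It had 1 and 8 counts (0.0359 and 0.269 CPM) in A549 and 42 and 50 counts (1.45 and 1.23 CPM) in TD. The A549 libraries differ widely from each other, yet both are below both TD libraries. The ratio by counts was 8.44 (4.26 to 19.0), and the fitted log2 change of 3.08 (SE 0.75) became 2.26 without A549 replicate 1 and 5.06 without A549 replicate 2.

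Of the 8 genes, 6 passed the filter for low counts, and CGA and CGB1 did not. The genes were proposed from this contrast, and CGB2, CGB3, CGB5, CGB7, CGB8 and LHB passed through their TD counts, so no count of calls is given for them. The share of all tested genes with both TD libraries above both A549 libraries was 36.5%, and nothing is read from it for the members.

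Set per length, the TD levels fell into steps. Per kilobase of exon (union of exons in GENCODE 29), CGB8 stood at 31.8 and 36.1 CPM per kb in the TD libraries and CGB5 at 2.99 and 3.86. LHB (2.29 and 1.95) and CGB7 (2.15 and 2.07) could not be ordered, since their ranges overlap. CGB3 followed at 0.746 and 1.62, CGB2 at 0.401 and 0.744, and CGB1 at 0 and 0.0296. CGB3 and CGB2 are next to each other with ranges that nearly touch, and the exons that CGB3 and CGB1 share with AC008687.1 were not allowed for. The place of CGB7 depends on its model: with its 918-base reference transcript in place of 3386 exon bases it stood at 7.78 CPM per kb on average, above CGB5 at 3.42. The last scale was per 100 windows of 75 bases found in no transcript of another gene. On it CGB8 stood at 13.3 and 15.1 CPM, CGB5 at 1.54 and 1.99 and CGB7 at 1.37 and 1.33. CGB3 stood at 0.263 and 0.572 and LHB at 0.329 and 0.279. CGB8 led on each of these 3 scales, the last of which leaves out the pairing of reads.

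The CGB8 share of the CGB counts was nearly the same in both TD libraries, while the smaller shares differed more in relative terms. CGB8 took 72.3% of the sum in TD replicate 1 (95% Wilson interval 69.6 to 74.8) and 72.1% in replicate 2 (69.9 to 74.1). CGB7 took 18.7% and 15.9%, CGB5 6.47% and 7.33%, CGB3 1.68% and 3.22% and CGB2 0.887% and 1.44%. The intervals of the 2 libraries overlap for all 6 genes, least for CGB3 (1.08 to 2.62 and 2.50 to 4.14), which is no test of sameness. In A549, 16 of 19 CGB counts were from CGB7, 84.2% (62.4 to 94.5). So the few parental reads came mostly from CGB7 and the TD reads mostly from CGB8.

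**Figure D2:**
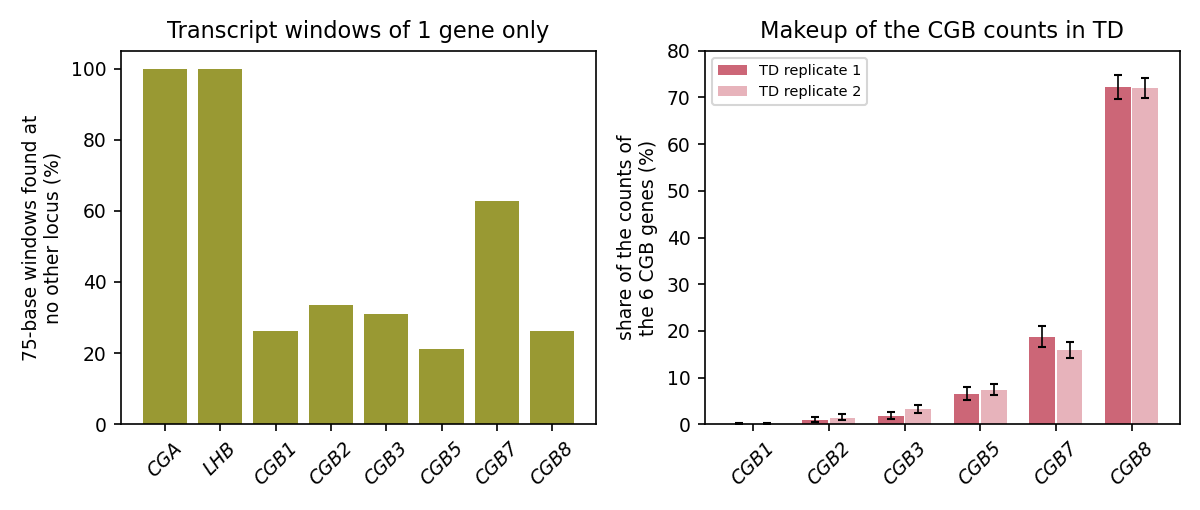
Left, percent of 75-base transcript windows of each gene that occur in no transcript of another gene. Right, percent of the 6-gene CGB count taken by each gene in the 2 TD libraries, with 95% Wilson intervals as bars. CGB8 takes 72.3% and 72.1% of the counts although only 26.1% of its windows are unique, a share that leaves out the pairing of reads.

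The genes around the cluster show how far the difference extends. The beta genes stand side by side in the order LHB, CGB3, CGB2, CGB1, CGB5, CGB8 and CGB7, between RUVBL2, a gene of an ATPase complex, and NTF4, which encodes a neurotrophin. NTF4 rose in TD, from 9 and 10 counts to 149 and 169 counts, which is from 0.330 ± 0.00969 to 4.64 ± 0.691 CPM (SD, n = 2). The next gene, KCNA7, a potassium channel, rose from 3 and 4 to 221 and 276 counts (7.61 and 6.78 CPM in TD). Its fitted log2 change was 5.84. With at most 10 counts in an A549 library, NTF4 and KCNA7 passed the filter for low counts only through TD. Their direction was thus fixed, and no p-value is given for them. On the other side RUVBL2 had means of 236 ± 9.13 and 284 ± 33.8 CPM (SD, n = 2) and was not called (log2 change 0.27, adjusted p = 0.11 by edgeR). It was called higher without TD replicate 1 (adjusted p = 0.000841 by edgeR) and by DESeq2 (adjusted p = 0.0154). Beyond KCNA7, SNRNP70, a splicing factor gene named here after its values were seen, had a log2 change of -0.31 (adjusted p = 0.0527 by edgeR).

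The remaining rows inside this interval were looked up after the members' values were seen and are given with no test. Between RUVBL2 and SNRNP70 the files hold 19 rows, 7 of them members. Apart from NTF4 and KCNA7, 10 other rows remain. Of these, 9 had both TD libraries above both A549 libraries, and AC008687.1 was at 0 throughout. With at most 5 counts in an A549 library, the 7 of them that passed the filter did so through TD, so their number is not set against that of other genes. The highest of these in TD was AC008687.6, an unprocessed pseudogene that lies between CGB8 and CGB7. It had 0 and 1 counts in A549 and 1048 and 1112 counts (36.1 and 27.3 CPM) in TD, more than CGB8 in the first TD library and fewer in the other. The neurotrophin pseudogenes NTF6A and NTF6B, which sit among the CGB copies, had 0 counts in A549 and 15 and 19, and 11 and 18 counts in TD. Because the strand setting of the counting is not given in the sources used here, neighbours on opposite strands cannot be fully told apart.

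**Figure D3:**
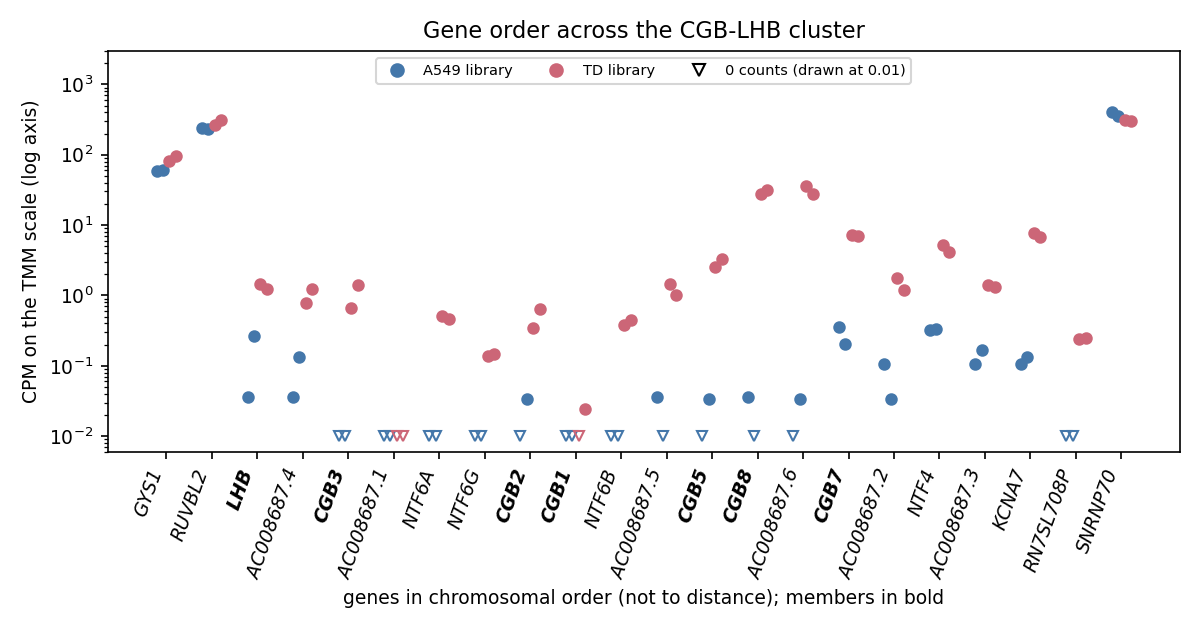
CPM (log axis) of each gene row from GYS1 to SNRNP70 in chromosomal order, with members in bold and 1 point for each library (A549 blue, TD red, open triangles at 0 counts). Rows from LHB to RN7SL708P are higher in both TD libraries, apart from AC008687.1 and CGB1, and the flanking GYS1, RUVBL2 and SNRNP70 have log2 changes of 0.55, 0.27 and -0.31.

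A list of 15 genes flanking the cluster had 14 tested members. Of these, 3 rose, 3 fell and 8 were not called, with a median log2 change of 0.21 against -0.04 over all tested genes. NTF4, KCNA7 and GYS1 rose, GYS1 by 0.55 (adjusted p = 0.0121 by edgeR), a call lost without A549 replicate 1 or A549 replicate 2. As NTF4 and KCNA7 passed the filter only through TD, a rise was the only call open to them. FTL fell by 0.94, PPFIA3 fell by 0.60 and TRPM4 fell by 0.39 on the log2 scale. None of these 3 was called without A549 replicate 1, FTL also not without A549 replicate 2, and TRPM4 also not with the replicate number as a block. Around CGA, the nearest protein-coding genes HTR1E and ZNF292 were at 0 counts in every library and at a log2 change of 0.07. In the list of 11 CGA neighbours, 3 of 9 tested members rose and 0 fell, among them NT5E, an ecto-enzyme farther along the chromosome (log2 change 3.55, adjusted p = 6.25e-05 by edgeR). The other 2, AKIRIN2 and SYNCRIP, were not called without A549 replicate 1 or A549 replicate 2, nor AKIRIN2 with the block.

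No receptor for the hormone was found above the level of 3 counts. LHCGR, the receptor of chorionic gonadotropin, had at most 2 counts in a library, TSHR at most 2, and FSHR 0. None could be tested. Of the other beta chain genes, FSHB and GPHB5 were at 0, and TSHB had 0 counts in A549 and 1 and 4 counts in the TD libraries. Of 28 genes of the receptor's signalling, 25 were tested, of which 12 rose and 6 fell (median log2 change 0.24). ARRB1, a receptor-desensitizing arrestin, fell by 3.96 on the log2 scale (adjusted p = 5.75e-05 by edgeR). PRKAR2B, a regulatory subunit of protein kinase A, rose by 2.54 (adjusted p = 0.000188 by edgeR). PDE4C and PRKAR2A rose and ADCY6 and ADCY9 fell. PDE4C was not called without A549 replicate 1 or A549 replicate 2. Of 9 steroidogenic genes that the receptor is known to drive in gonads, 7 had at most 3 counts in any library. HSD17B1 rose by 0.84 (adjusted p = 0.0272 by edgeR), a call lost without A549 replicate 1 or A549 replicate 2, with no filter, and with the block.

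Transcription factors known to act on the subunit genes went both ways. Of 26 listed, 20 were tested, of which 7 rose, 4 fell and 9 were not called (median log2 change 0.21). The placental activators of the AP-2 family fell. TFAP2C went from 7.21 ± 0.203 to 0.528 ± 0.017 CPM (SD, n = 2; log2 change -3.76, adjusted p = 0.000212 by edgeR) and TFAP2A from 49.9 ± 3.77 to 31.2 ± 1.11 CPM (-0.67, adjusted p = 0.00405 by edgeR). GATA2 fell by 1.26 (adjusted p = 0.0103 by edgeR), a call lost without A549 replicate 1 or A549 replicate 2. GATA3 was not called (log2 change 0.42, adjusted p = 0.332 by edgeR), but was without TD replicate 1 (0.73, adjusted p = 0.00341). GCM1, the placental fusion factor, had at most 1 count. ETS2, a factor known to activate CGB promoters, rose from 74.2 ± 1.08 to 221 ± 16.7 CPM (1.57, adjusted p = 0.000276 by edgeR). JUN rose from 21.0 ± 2.37 to 136 ± 5.15 CPM and JUNB by 2.18 on the log2 scale, whereas FOS, their partner, fell from 20.4 ± 0.310 to 0.307 ± 0.191 CPM. With 5 and 18 counts in TD, FOS passed the filter only with its A549 counts, so a fall was the only call open to it. The part of any of these factors in the CGB difference was not tested.

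**Figure D4:**
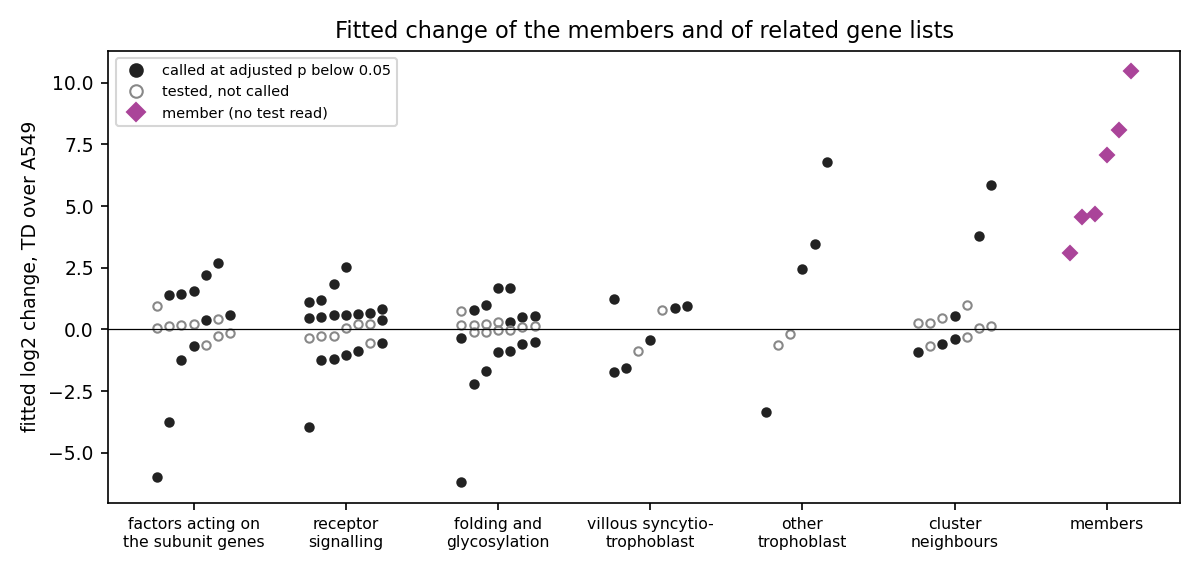
Fitted log2 change of TD over A549 for tested genes of each list, with filled points for genes called at an adjusted p below 0.05 and open points for others; diamonds are the 6 members that passed the filter. The members lie between 3.08 and 10.46, and the lists spread on both sides of 0.

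Markers of the cell types that normally make these hormones were mostly at or near 0, and those tested were split. Of 26 genes of the villous syncytiotrophoblast, the hormone-secreting layer of the placenta, 18 had at most 6 counts in any library, and CSH1, CSH2, LGALS13, LGALS14 and LGALS16 were at 0 in all. Of the 8 tested, 3 rose and 3 fell (median log2 change 0.17). TFPI2, PAPPA and SDC1 rose, by 1.23, 0.89 and 0.97. INSL4, a placental relaxin-family peptide, fell from 83.9 ± 8.57 to 25.1 ± 0.873 CPM (SD, n = 2; adjusted p = 0.00031 by edgeR), and PSG4 and ADAM12 fell by 1.55 and 0.43. With 8 and 9 counts in TD, PSG4 passed the filter only through A549, so a fall was the only call open to it. PSG4 was not called without A549 replicate 1 or A549 replicate 2, with the replicate block or by DESeq2. The list's summed level was 675 and 691 CPM in A549 and 1140 and 1254 CPM in TD, most of it from SDC1, TFPI2 and PAPPA. Its part in the CGB difference was not tested.

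Of 10 markers of other trophoblast, 6 were tested and 3 rose, MMP2, TP63 and ITGA1, by 6.79, 3.45 and 2.45. With 9 counts in each A549 library, TP63 passed the filter only through TD, so a rise was the only call open to it. MMP2 and ITGA1 are also common in mesenchymal cells. PLAC8 fell by 3.34, a call lost without A549 replicate 1 or A549 replicate 2 and with the replicate block. With 1 and 2 counts in TD, PLAC8 passed the filter only through A549. A fall was the only call open to it, and no p-value is given. HLA-G, the defining marker of invading trophoblast, had 1 count in all, ELF5 had 1, and VGLL1 was at 0. Others of the list were present in both groups. TEAD4 had 1089 and 1103 counts in A549 and 930 and 1441 in TD, and CDX2 had 15 and 12, and 9 and 12. The summed level was 60.8 and 63.3 CPM in A549 and 348 and 363 CPM in TD. Among pituitary markers, FSHB and GH1 were at 0 in all libraries. The summed level of the pituitary list overlapped between groups, at 34.2 and 26.7 CPM in A549 and 32.3 and 38.7 CPM in TD. Germ cell, leukocyte, endothelial and fibroblast lists summed to at most 2.62 CPM in any library.

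Secretion of the beta chain needs disulfide formation and addition of sugars, and genes of those steps were split. All 26 of the list were tested, of which 7 rose, 8 fell and 11 were not called (median log2 change 0.11). GALNT2, which starts O-linked chains like those on the tail of the CG beta chain, rose from 253 ± 1.40 to 818 ± 35.5 CPM (SD, n = 2; log2 change 1.69, adjusted p = 0.000197 by edgeR). ST3GAL1, which caps such chains with sialic acid, rose by 1.66, and GCNT1 by 1.00, the latter not called without A549 replicate 1 or A549 replicate 2. GALNT3 fell by 6.19, MGAT4A by 2.20 and MGAT3 by 1.70. In TD, GALNT3 had 1 count in each library and MGAT3 had 7 and 14. GALNT3 and MGAT3 passed the filter only through A549, so a fall was the only call open to them. The fall of MGAT3 was not called without A549 replicate 1 or A549 replicate 2, with the replicate block or by DESeq2.

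Genes with the profile most like the summed CGB genes were found by the root mean square distance of log2(CPM + 0.1) over the 4 libraries, among 13202 tested protein-coding genes outside the family. The nearest was COL22A1, a collagen of tissue junctions, at a distance of 0.150, with 0.395 and 0.269 CPM in A549 and 36.4 and 36.3 CPM in TD. RASGRF2, an activator of RAS proteins, followed at 0.345, CORO2B, an actin-binding coronin, at 0.403, ADAMTS6, a secreted metalloprotease, at 0.405, and CDK14, a cyclin-dependent kinase, at 0.418. All 5 went from low levels in A549, at most 0.505 CPM, to at least 27.3 CPM in TD. The likeness rests on 4 libraries in 2 groups, so any gene with the same 2 levels would rank here.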

How the data were processed

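The deposited files hold raw counts per Ensembl gene, 1 file for each library, from polyadenylated RNA made into strand-specific TruSeq libraries and read from both ends for 75 bases, per the labels' protocols. FastQC 0.11.8, STAR 2.7.1a and HTSeq 0.11.2 and the hg19 build (GRCh37) are named, with no role, per the submitters' processing notes. Which annotation release and strand setting were used is not given in the sources used here. The summary lines at the end of each file were left out; among them, multiply aligned reads came to 8.08% to 9.22% of the reads in a file.

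Symbols came from a table of gene IDs, and gene types, order, exon lengths and transcripts from GENCODE 29 (GRCh38). As the builds differ, no coordinates are given for counts. Promoters are from RefSeq (GRCh38.p14), with all 8 genes matched.

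TD was compared with A549 in R 4.3.3 with edgeR 4.0.16 and its quasi-likelihood test, with TMM scaling, the default filter (minimum count 10) and Benjamini-Hochberg adjustment over all tested genes, called below 0.05. It was tested on simulated data. Ratios by counts carry 95% exact conditional intervals on TMM-scaled totals. DESeq2 1.42.0 was an alternative. Sequences were aligned with Biopython 1.88.

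The members and lists were chosen with earlier results of these data known. Besides the members and fixed genes, a list's 3 strongest called genes in either direction are named at most, and the 5 nearest profiles. Any other named gene was picked with its values in view.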

Additional observations from a re-analysis of the deposited data

How the results depend on the processing

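The log2 change of the summed CGB genes ran from 6.68 to 7.21 with 1 library left out. Its direction was fixed by the choice of genes and is no sign of stability. It was 6.45 with LHB added to the sum and 7.02 without CGB1 and CGB2. DESeq2 was not run on the summed row. The filter of 5 CPM in 2 libraries left only CGB7 and CGB8 among the members. The values of CGB2, CGB5, CGB8 and LHB without an A549 library moved with 1 to 8 reads, which is the limit that depth sets here.

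With 1 library left out, the number of genes called higher ran from 2114 to 5329 and lower from 2236 to 6140, and the lone library of a group was assumed to vary like the other pair. Called higher ran from 4 to 13 for folding and glycosylation, 2 to 6 for neighbours of the cluster and 1 to 3 for those of CGA. Called lower ran from 0 to 5 for neighbours of the cluster, 0 to 1 for those of CGA and 0 to 1 for other trophoblast. That last number was 2 with library totals and 0 with the replicate block. DESeq2 called 5 neighbours of the cluster higher. Library totals, no filter and the filter of 5 CPM each called 1 neighbour of CGA lower. The causes were not tested.

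The replicate numbers are shared by both groups, but nothing in the labels pairs the libraries. Deviations of replicate 1 from the group mean correlated at -0.079 across genes between A549 and TD. With the replicate number as a block, 2964 genes were called higher and 2847 lower, and the log2 change of the summed CGB genes was 6.95. Level per kilobase was also computed with the reference transcript, chosen after seeing the data.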
